A study of Mus musculus with 9 samples.

Results

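The genes described here are 10 genes of cytotoxic lymphocytes and natural killer (NK) cells, chosen by symbol: Gzma, Gzmb, Gzmk, Prf1, Nkg7, Klrd1, Klrk1, Ncr1, Ifng and Fasl. All 10 were found once each among the 41128 genes of the count table, and all 10 passed the filter on low counts. Bulk RNA-seq had been run on lymphomas of 9 mice, 1 library per tumor. All mice carried IµBcl6 and were Cγ1 wt/cre, and tumors of 3 mice that were Smc3 wt/wt (named Bcl6) were compared with tumors of 6 mice that were Smc3 wt/- (named Smc3/Bcl6), the question being how loss of 1 Smc3 allele, which encodes a core subunit of the cohesin ring, alters expression in the tumors. The IµBcl6 transgene drives Bcl6 in B cells, and the Cγ1-Cre allele acts in B cells entering the germinal center reaction, so the cells that normally express the 10 genes are not those in which Smc3 is targeted. The labels give mesenteric lymph node for replicate 1 of each genotype and lymph node for the other 7 tumors, and they state no age. The paper describes the sequenced lymphoma cells of both genotypes as coming from mesenteric lymph nodes, so the labels may not mark different sites.

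Cytotoxic T cells and NK cells kill by releasing granules in which perforin, encoded by Prf1, opens the way for granzymes, serine proteases that trigger death of the target cell. Another route runs through Fas ligand (Fasl), which engages the death receptor Fas, and interferon gamma (Ifng) is the main cytokine these cells secrete. Target recognition differs between the cells. CD8 T cells use the T cell receptor with the coreceptor Cd8a/Cd8b1. NK cells rely on germline-encoded receptors such as NKp46 (Ncr1), CD94 (Klrd1) and NKG2D (Klrk1). CD94 and NKG2D are also found on CD8 T cells.

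Levels are CPM, the counts relative to library totals scaled with TMM factors. Library totals ran from 10156728 to 17774577 counts. Smc3, the targeted gene, lay between 88.1 and 126 CPM in the Bcl6 tumors and between 27.9 and 111 CPM in the Smc3/Bcl6 tumors, so the groups overlapped. The low value was that of Smc3/Bcl6 tumor 2, in which the 25% of genes with the shortest exon length lay at a median of 0.85 (log2) above their level in the median tumor and the 25% with the longest at -0.98, against -0.13 to 0.13 in the other tumors. Values without this tumor are given where they differ most. Cd79a, a chain of the B cell receptor complex, lay between 277 and 1868 CPM, and T cell marker genes (Cd3d, Cd3e, Cd3g, Cd2, Cd5, Trac and Lck) summed to between 120 and 2785 CPM, so every library held T cell RNA beside that of B cells. The lowest sum, in Smc3/Bcl6 tumor 1, was mostly Lck (57.6 CPM) and Cd2 (43.0 CPM), with Cd3e at 5.13 CPM.

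The granzyme genes and Ncr1 were chosen for display because the mix of granzymes and the ratio of Ncr1 to Cd8a, both described below, differed among the tumors. Their promoter sequences are those of the reference genome, not of the tumors, and their part in these differences was not tested. Each line gives the 250 bases before a start site from RefSeq (GRCm38.p6), read 5′ to 3′ on the strand of the gene. Gzma is at chr13:113100982-113101231 on the minus strand, Gzmb at chr14:56262335-56262584 on the minus strand, Gzmk at chr13:113180966-113181215 on the minus strand and Ncr1 at chr7:4337465-4337714 on the plus strand. Capitals mark the T-box core GGTGTGA or the RUNX core TGTGGT, the motifs named for the families of Tbx21 and Eomes and of Runx3, or their reverse complements TCACACC and ACCACA.
Gzma: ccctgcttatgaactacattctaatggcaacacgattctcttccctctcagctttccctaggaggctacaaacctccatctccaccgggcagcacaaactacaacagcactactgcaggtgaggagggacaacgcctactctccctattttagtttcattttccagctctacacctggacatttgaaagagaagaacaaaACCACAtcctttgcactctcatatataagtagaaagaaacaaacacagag
Gzmb: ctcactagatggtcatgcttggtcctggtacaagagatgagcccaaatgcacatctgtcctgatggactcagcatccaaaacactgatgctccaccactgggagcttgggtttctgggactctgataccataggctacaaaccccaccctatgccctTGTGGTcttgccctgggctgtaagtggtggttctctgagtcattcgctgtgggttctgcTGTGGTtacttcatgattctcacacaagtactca
Gzmk: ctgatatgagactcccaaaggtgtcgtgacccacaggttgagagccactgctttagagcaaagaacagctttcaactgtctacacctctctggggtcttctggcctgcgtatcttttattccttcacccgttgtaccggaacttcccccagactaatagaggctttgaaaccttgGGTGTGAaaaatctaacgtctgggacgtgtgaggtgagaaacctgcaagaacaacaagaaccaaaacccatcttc
Ncr1: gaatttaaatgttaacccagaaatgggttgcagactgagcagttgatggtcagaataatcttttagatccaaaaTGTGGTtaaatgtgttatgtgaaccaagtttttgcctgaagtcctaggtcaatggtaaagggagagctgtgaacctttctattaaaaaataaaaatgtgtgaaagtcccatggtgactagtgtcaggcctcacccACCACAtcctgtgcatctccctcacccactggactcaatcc

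RefSeq promoter windows were matched for 9 of the 10 genes. The RUNX core was found on either strand in 6 of them (Gzma, Gzmb, Ncr1, Klrk1, Nkg7 and Prf1), and 14.0% of 32851 windows of the same length held it. The T-box core was found in 2 (Gzmk and Nkg7), against 3.33% of the windows. The match of Nkg7, at position -13, lay within the 65 bases of its window that GENCODE M21 annotates as exon. No match of one motif overlapped a match of the other in the 4 sequences shown, and a match describes only the letters present.

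Among the effector genes, Gzma encodes granzyme A, a protease that cleaves after basic residues, and lies at chr13:113093825-113100981 (GRCm38). It stood at 6.79, 46.3 and 16.7 CPM in Bcl6 tumors 1, 2 and 3, and among the Smc3/Bcl6 tumors the lowest, median and highest values were 0.833, 19.2 and 68.7 CPM, in tumor 1 and tumor 3 at the ends. Smc3/Bcl6 tumors thus lay on both sides of all 3 Bcl6 tumors. Gzmb (chr14:56258838-56262260) encodes granzyme B, which cleaves after aspartate and activates caspases. Its Bcl6 values were 20.3, 265 and 642 CPM, and the Smc3/Bcl6 values ran from 6.11 in tumor 1 over a median of 48.9 to 574 in tumor 2. Gzmk (chr13:113171608-113225908), a granzyme of effector memory T cells, was at 7.41, 270 and 147 CPM in the Bcl6 tumors and at 2.20 (lowest, in tumors 4 and 6), 23.5 (median) and 306 (highest, in tumor 2) in the Smc3/Bcl6 tumors. For Gzmb and Gzmk the tumors fell into a high level and a low level within each genotype, with Smc3/Bcl6 tumor 5 between them at 84.7 and 44.9 CPM.

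Perforin and Nkg7 take part in killing through granules. Prf1 (chr10:61297833-61304680) was at 10.1, 166 and 194 CPM in the Bcl6 tumors, and at 12.6, 40.4 and 195 CPM as the lowest, median and highest of the Smc3/Bcl6 tumors. Of the 10 genes it varied least, 19.4-fold between the extreme tumors. Nkg7 (chr7:43437073-43438249), a small granule membrane protein that takes part in exocytosis, was at 49.8, 982 and 883 CPM in the Bcl6 tumors, and between 13.0 (tumor 1) and 1853 (tumor 2), with a median of 142 CPM, in the Smc3/Bcl6 tumors. On the scale of CPM per kilobase of exon it had the highest median of the 10 genes (227), followed by Gzmb (59.0), Gzmk (32.3), Prf1 (24.2), Klrd1 (23.0), Gzma (17.2), Ifng (16.5), Fasl (11.2), Klrk1 (6.87) and Ncr1 (3.20). Within a tumor, Nkg7 ranked first of the 10 genes per kilobase in all 9 tumors. Over tumors the range of each gene was wider than the step to its neighbor in this order, and the order of the other genes varied, for example with Klrd1 at rank 2 in Smc3/Bcl6 tumor 4 and at rank 7 in Bcl6 tumor 2.

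Ifng (chr10:118441046-118445892) was at 5.38, 92.2 and 75.5 CPM in the Bcl6 tumors, and its Smc3/Bcl6 values ran from 0.267 in tumor 6, which rests on 4 reads, over a median of 12 to 125 in tumor 2. This 467-fold range was the widest of the 10 genes. In the annotation 25.9% of its exon bases are shared with Gm49751 on the same strand, and the deposited counts do not show how such reads were assigned. Fasl (chr1:161780689-161788495) was at 4.23, 59.7 and 69.4 CPM in the Bcl6 tumors and at 1.46, 14.6 and 88.0 CPM as the lowest, median and highest Smc3/Bcl6 values. Both genes were high in the same 4 tumors, 2 of each genotype.

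Of the receptor genes, Klrd1 and Klrk1 were highest in the same 4 tumors as the effector genes other than Gzma, and Ncr1 was not. Klrd1 (chr6:129591782-129598775), the CD94 chain that pairs with NKG2 receptors, was at 5.38, 47.7 and 39.3 CPM in the Bcl6 tumors and ran from 0.763 (tumor 1) over a median of 23.4 to 89.6 CPM (tumor 2) in the Smc3/Bcl6 tumors. Klrk1 (chr6:129610323-129623864), the activating receptor NKG2D, was at 9.08, 74.1 and 91.6 CPM and at 2.08 (tumor 1), 37.3 (median) and 110 CPM (tumor 3), respectively. Smc3/Bcl6 tumor 4, low for Gzmb and Gzmk, held 29.5 CPM of Klrd1 and 49.3 CPM of Klrk1. Ncr1 (chr7:4337724-4345164), encoding the NK cell receptor NKp46, was the scarcest gene, at 5.47, 9.61 and 3.59 CPM in the Bcl6 tumors and at 0.694 (tumor 1), 3.31 (median) and 32.6 CPM (tumor 4) in the Smc3/Bcl6 tumors. Its highest level was thus in a tumor where most effector genes were low, and 490 reads stood behind that value.

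**Figure D1:**
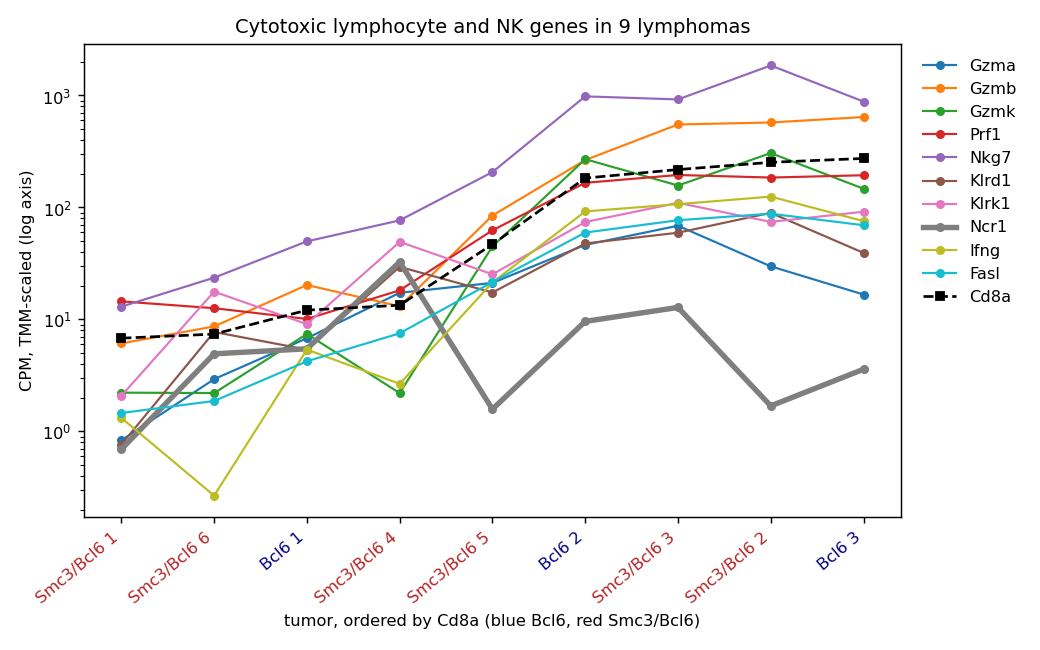
Level of each of the 10 genes and of Cd8a in CPM (log axis) in the 9 tumors, ordered from left to right by Cd8a, with 1 line per gene, a thick line for Ncr1 and a dashed line for Cd8a; tumor names are blue for Bcl6 and red for Smc3/Bcl6. Tumors of both genotypes stand at each end, and the line of Ncr1 peaks in Smc3/Bcl6 tumor 4 at 32.6 CPM.

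The 10 genes summed to 124, 2012 and 2162 CPM in Bcl6 tumors 1, 2 and 3. In Smc3/Bcl6 tumors 1 to 6 the sums were 42.9, 3326, 2261, 249, 508 and 82.5 CPM. The 4 highest sums were those of the 4 tumors richest in Cd8a, Bcl6 tumors 2 and 3 and Smc3/Bcl6 tumors 2 and 3, and 8 of the 10 genes, all but Gzma and Ncr1, had exactly these as their 4 highest tumors. Between the lowest and the highest tumor the genes differed by a median of 93.8-fold, compared with 4.03-fold over all genes tested. In bulk tissue, fewer cytotoxic cells and less RNA per cell cannot be told apart.

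Cd8a, the coreceptor gene used as the reference, was at 12.1, 183 and 274 CPM in the Bcl6 tumors and at 6.8, 253, 218, 13.4, 46.9 and 7.40 CPM in Smc3/Bcl6 tumors 1 to 6. To describe how much effector RNA each tumor held for its CD8 signal, the count of each gene was divided by that of Cd8a in the same library. Fasl, Gzmb, Prf1 and Nkg7 kept close to Cd8a, their ratios differing 2.61-fold, 2.82-fold, 3.01-fold and 3.83-fold between the extreme tumors while Cd8a itself differed 40.4-fold. The ratio of Gzmb was 1.68, 1.44 and 2.34 in the Bcl6 tumors and 0.898, 2.27, 2.53, 0.975, 1.81 and 1.17 in Smc3/Bcl6 tumors 1 to 6. That of Nkg7 was 4.12, 5.36 and 3.22, and 1.91, 7.31, 4.24, 5.71, 4.42 and 3.19, respectively. The highest of these, in Smc3/Bcl6 tumor 2, belongs to the shortest of the 10 genes (914 exon bases) in the tumor with high counts of short genes. Cd8a has 3637 exon bases, so other ratios in Smc3/Bcl6 tumor 2 also set genes of unlike length against each other. The lowest ratio of Klrk1 (7183 exon bases), 0.293, was in this tumor as well. For Prf1 the highest ratio, 2.13, was in Smc3/Bcl6 tumor 1, the tumor with the lowest Cd8a.

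The remaining ratios varied more. Gzmk spanned 9.02-fold, from 0.163 in Smc3/Bcl6 tumor 4 to 1.47 in Bcl6 tumor 2. For Ifng the range was 14.0-fold, and its low end, 0.036 in Smc3/Bcl6 tumor 6, had an exact 95% counting interval of 0.00965 to 0.0949. Klrk1, Klrd1 and Gzma spanned 12.5-fold, 19.5-fold and 21.1-fold, and all 3 had their highest ratio in Smc3/Bcl6 tumor 4, at 3.67, 2.19 and 1.29. In that tumor Klrd1 reads outnumbered Cd8a reads, 443 to 202.

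Ncr1 stood apart from the other 9 genes with a 363-fold range of its ratio to Cd8a. Its ratio was 2.43 in Smc3/Bcl6 tumor 4 (95% interval 2.05 to 2.87) and 0.667 in tumor 6 (0.490 to 0.903), and 0.453 in Bcl6 tumor 1 (0.330 to 0.615). In the 4 tumors rich in Cd8a it was 0.0524, 0.0131, 0.00668 and 0.0590, and it was 0.102 in Smc3/Bcl6 tumor 1, the tumor lowest in Cd8a, and 0.0337 in Smc3/Bcl6 tumor 5. These intervals cover counting error only.

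**Figure D2:**
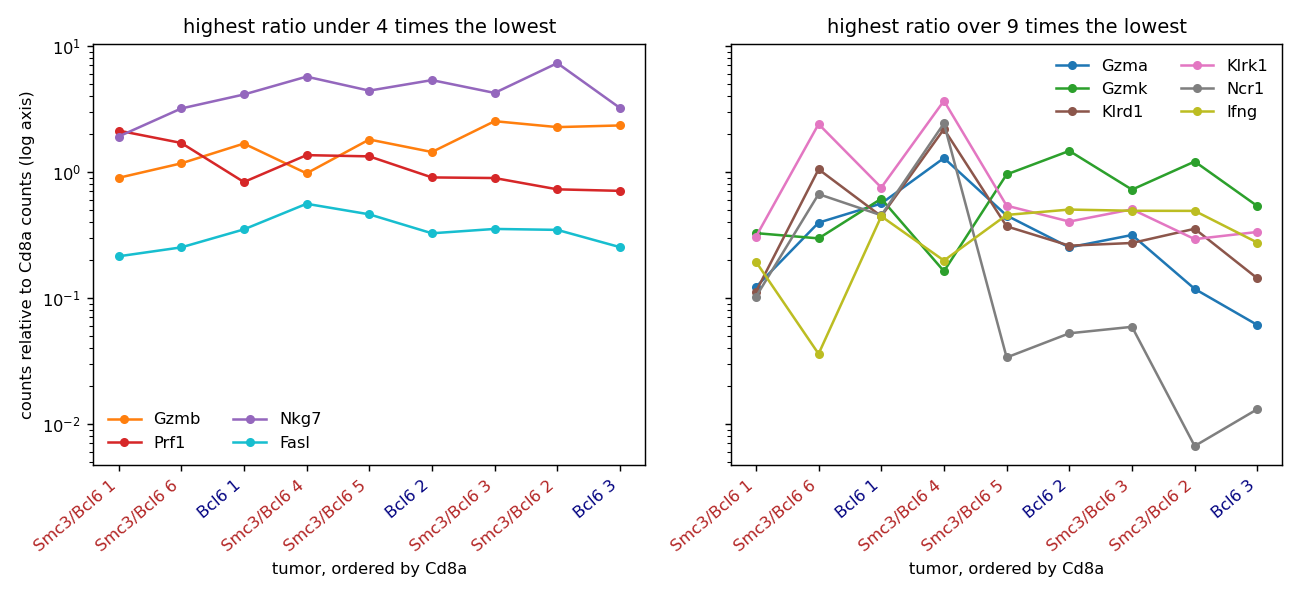
Ratio of the count of each gene to that of Cd8a in the same tumor (log axis), 1 line per gene over the tumors ordered by Cd8a, with tumor names blue for Bcl6 and red for Smc3/Bcl6. Fasl, Gzmb, Prf1 and Nkg7 (left panel) stay within a 4-fold range, and Ncr1 (right panel) spreads from 0.00668 to 2.43.

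The mix of the 3 granzymes also differed among tumors. With counts divided by exon length, Gzmb made up 53.9%, 43.4% and 78.5% of the granzyme sum in the Bcl6 tumors. In Smc3/Bcl6 tumors 1 to 6 its share was 63.7%, 61.5%, 67.9%, 32.7%, 52.5% and 57.3%. Gzmb thus had the largest share of the 3 in all tumors but Bcl6 tumor 2, where Gzmk took 45.8%, and Smc3/Bcl6 tumor 4, where Gzma took 61.6% and Gzmk 5.66%. The share of Gzma ranged from 2.92% in Bcl6 tumor 3 to that value.

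**Figure D3:**
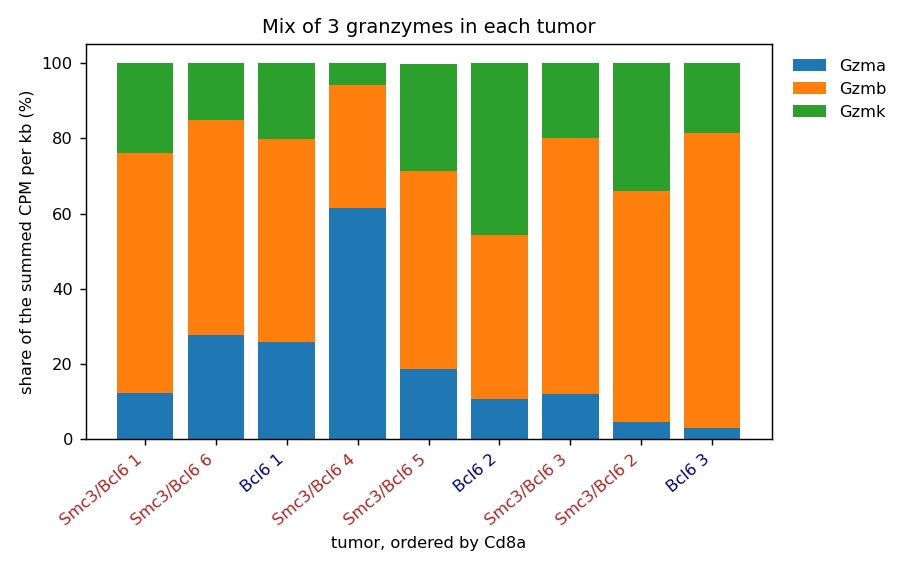
Share of Gzma, Gzmb and Gzmk in the sum of their counts per kilobase of exon (percent), 1 stacked bar per tumor, ordered by Cd8a. Gzmb is the largest share in 7 of the 9 tumors, Gzmk in Bcl6 tumor 2 and Gzma in Smc3/Bcl6 tumor 4.

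Across the 9 tumors, log2 CPM of 9 of the 10 genes followed that of Cd8a at an exact Spearman p below 0.05, as did 6.86% of the 14056 genes tested in the positive direction. After Benjamini-Hochberg adjustment over these genes 0 passed 0.05, in the list or outside it. The relation was tightest for Gzmb, with a Pearson r of 0.994 (n = 9, exact permutation p = 5.51e-05) and a Spearman rho of 0.983 (exact permutation p = 4.96e-05, adjusted p = 0.106). Leaving out each tumor in turn kept r of Gzmb between 0.992 and 0.996.

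For Fasl r was 0.984 and rho 0.95, for Prf1 0.984 and 0.883, for Nkg7 0.982 and 0.883, for Gzmk 0.973 and 0.767, and for Ifng 0.964 and 0.867. The receptors Klrd1 (r = 0.832, rho = 0.867) and Klrk1 (0.825 and 0.917) and the protease gene Gzma (0.820 and 0.700) followed Cd8a less closely. Ncr1 showed no relation at this number of tumors (r = 0.074, exact permutation p = 0.846; rho = 0.133, exact permutation p = 0.744). Its r ranged from -0.249 without Smc3/Bcl6 tumor 1 to 0.354 without Smc3/Bcl6 tumor 4.

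Cd8a itself came in steps, 4 tumors at 6.8 to 13.4 CPM, 1 at 46.9 and 4 at 183 to 274, so each of these correlations mostly compares the steps and no step holds enough tumors for a correlation of its own. Without the 2 tumors farthest from the median of Cd8a, 4 of the 10 genes (Gzmb, Prf1, Klrk1 and Fasl) kept an exact Spearman p below 0.05, against 4.14% of all genes. Pearson r then was 0.990 for Gzmb, 0.989 for Fasl and 0.986 for Prf1. Of the genes that lost the call with 7 tumors, Nkg7 had an r of 0.982, Ifng of 0.977, Gzmk of 0.954, Klrd1 of 0.804 and Gzma of 0.704, and Ncr1 stood at -0.336. Within the 6 Smc3/Bcl6 tumors r was 0.998 for Gzmb and 0.048 for Ncr1, and within the 7 tumors labelled lymph node 0.994 and -0.282.

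Set against each other, the 9 genes other than Ncr1 had pairwise Pearson r between 0.73 and 0.99 over the 9 tumors, with a median of 0.90 over 36 pairs, and r of Ncr1 to them lay between -0.03 and 0.53. Klrd1 and Klrk1, neighbors on chromosome 6, were among the closest pairs (r = 0.978). These values describe 9 libraries that share the steps in T cell RNA described above. T cell markers summed to 2778 and 1931 CPM in Bcl6 tumors 2 and 3 and 2785 and 2284 CPM in Smc3/Bcl6 tumors 2 and 3, compared with 120 to 1130 CPM in the other 5 tumors, and their part in the levels of the 10 genes was not tested.

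**Figure D4:**
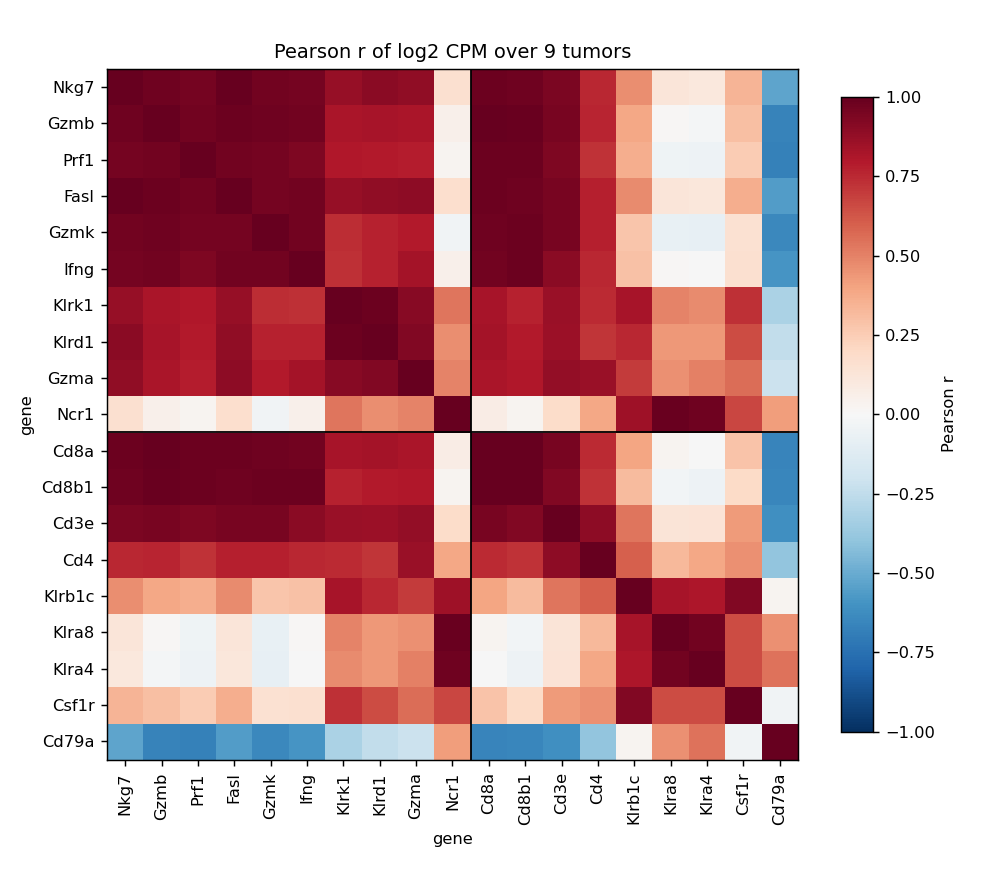
Pearson r of log2 CPM over the 9 tumors between the 10 genes and reference genes of T cells, NK cells, macrophages and B cells. Of the 10 genes, the 9 other than Ncr1 have an r with Cd8a between 0.820 and 0.994, and Ncr1 (0.074) has its highest r with the NK receptor genes Klra8 and Klra4.

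By the same measure, the 5 genes most like Nkg7 were Sh2d1a (r = 0.996), Trbv20 (0.993), Sh2d2a (0.992), Cd3d (0.992) and Lat (0.990). Sh2d1a, Sh2d2a and Lat encode signaling adaptors of T cells, Cd3d a chain of the T cell receptor complex and Trbv20 a variable segment of the receptor. Those most like Prf1 were Traj9 (0.990), Ifi205 (0.990), Lcn4 (0.985), Cd8a (0.984) and Tmem66 (0.982). Closest to Ncr1 were Klra8 (0.991), P2ry10 (0.984), Klra4 (0.970), Fv1 (0.970) and Pgm2l1 (0.969). Klra8 and Klra4 encode Ly49 receptors of NK cells, and reads of this family of near-identical genes may have been assigned to the wrong member.

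The markers of NK cells (Ncr1, Klrb1c, Klre1, Klra8, Klra4 and Eomes) summed to 20.1, 133 and 104 CPM in the Bcl6 tumors and 3.47, 62.9, 138, 121, 31.5 and 26.1 CPM in Smc3/Bcl6 tumors 1 to 6, and no marker was at 0 in all libraries. In Smc3/Bcl6 tumor 4, where Ncr1 was at 32.6 CPM, Klrb1c (NK1.1) was at 41.7, Klra4 at 12 and Klra8 at 10.5 CPM, in each case the highest of the 9 tumors. The 6 NK cell markers summed to more than the 2 CD8 markers Cd8a and Cd8b1 in Smc3/Bcl6 tumor 4 (CD8 sum 28.3 CPM) and tumor 6 (14.6 CPM). In the other tumors they summed to less. These sums hold unlike numbers of genes and are not scaled by exon length. Klre1, another NK cell receptor, was at 14.9 CPM in Smc3/Bcl6 tumor 4 and at 29.9 CPM in Smc3/Bcl6 tumor 2. The macrophage markers Csf1r (720 CPM) and Emr1 (157 CPM) also had their highest level in Smc3/Bcl6 tumor 4. Cd68, C1qa and C1qb were highest in Smc3/Bcl6 tumor 2, and Mertk was highest in Smc3/Bcl6 tumor 3. The 6 macrophage markers summed to 1814 CPM in Smc3/Bcl6 tumor 4, below the 2162 CPM of Smc3/Bcl6 tumor 2. Eomes, which is also expressed in CD8 T cells, was at 9.18 CPM in Smc3/Bcl6 tumor 4 and at 87.6 CPM in Bcl6 tumor 2. Whether these differences come from NK cells was not tested.

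Between genotypes, 0 of the 10 genes were called in edgeR's quasi-likelihood test with the thresholds of the study (p before adjustment under 0.1, fold change beyond 0.56 on the log2 scale in either direction), by which 2.15% of the 14057 genes tested were called, 1.28% as higher and 0.868% as lower in Smc3/Bcl6 tumors. No gene of the table reached an adjusted p below 0.05, and 0.562% had an unadjusted p below 0.05, none of the 10 among them. The log2 fold changes (Smc3/Bcl6 over Bcl6) of the 10 genes had a median of -0.38, compared with 0.06 over all genes tested. Of these changes 7 were negative and 3 positive. The positive ones were those of Gzma, Klrd1 and Ncr1, whose mean log2 CPM was nevertheless lower in Smc3/Bcl6 tumors. In each of the 10 the change was smaller than its own standard error, which ran from 0.96 to 1.54 in contrast to a median of 0.46 over all genes. Changes of the size of these errors could not be detected with 3 tumors against 6.

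The mean of Nkg7 was 638 ± 512 CPM over Bcl6 tumors (SD, n = 3) against 516 ± 740 CPM over Smc3/Bcl6 tumors (SD, n = 6), and its log2 fold change was -0.31 ± 1.41 (SE, exact permutation p of log2 CPM = 0.5). Gzmb averaged 309 ± 313 and 206 ± 278 CPM, a change of -0.58 ± 1.46 (exact permutation p = 0.405). The largest difference downward, -0.72 ± 1.54, was that of Gzmk (142 ± 132 against 85.9 ± 124 CPM, exact permutation p = 0.357). The largest upward, 0.54 ± 1.09, was that of Ncr1 (6.22 ± 3.08 against 9.06 ± 12.4 CPM). The fold change follows mean levels, whereas the permutation test compares means of log2 CPM. For Ncr1 that mean was lower in Smc3/Bcl6 tumors (exact permutation p = 0.762), whose median of 3.31 CPM lay below each Bcl6 value. Prf1 stood at -0.60 ± 1.05 and Gzma at 0.01 ± 1.07. The others were Klrd1 (0.14 ± 1.09), Klrk1 (-0.33 ± 0.96), Ifng (-0.43 ± 1.51) and Fasl (-0.43 ± 1.25).

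By the exact permutation test on log2 CPM (84 splits, smallest two-sided p 0.0238), p of the 10 genes ran from 0.357 to 0.881. Levels of the genotypes overlapped for all 10, and 0.484% of the genes tested did not overlap. Cd8a itself had a log2 fold change of -0.78 ± 1.24 (exact permutation p = 0.452).

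**Figure D5:**
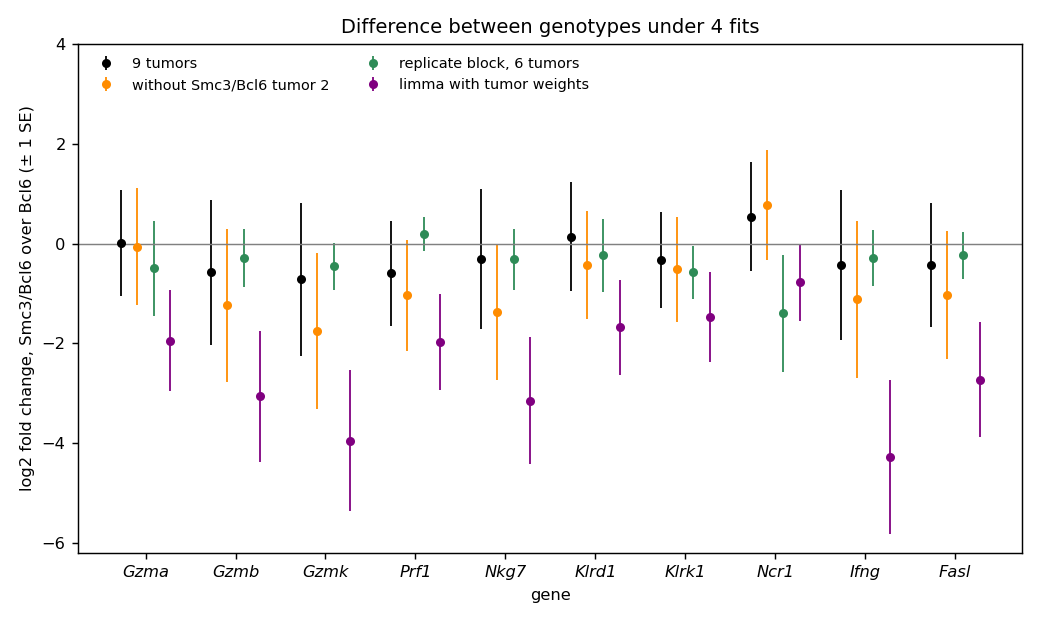
Log2 fold change of each of the 10 genes in Smc3/Bcl6 over Bcl6 tumors by edgeR on 9 tumors, without Smc3/Bcl6 tumor 2 and with a replicate block over 6 tumors, and by limma with a quality weight per tumor, with bars of 1 standard error. The edgeR estimates from 9 tumors lie within 1 standard error of 0, and those with quality weights lie below 0, down to -4.28 for Ifng.

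Some settings moved these values. Without Smc3/Bcl6 tumor 2 the median over the 10 genes was -1.03, without Bcl6 tumor 3 it was 0.02, and 0 genes were called in either case. With tumors weighted by quality in limma, 7 of the 10 genes (Gzma, Gzmb, Gzmk, Prf1, Nkg7, Ifng and Fasl) were called lower in Smc3/Bcl6 tumors, in a fit that called 7.13% of all genes lower and 4.57% higher. Their adjusted p in limma was 0.563 to 0.564. Smc3/Bcl6 tumor 2 had the lowest weight (0.125) in this fit. The highest weights were those of Bcl6 tumor 2 (3.3, Cd8a at 183 CPM) and Smc3/Bcl6 tumor 6 (2.61, Cd8a at 7.4 CPM). The part of these weights in the calls was not tested.

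Tumors of the same number could be set side by side for replicates 1 to 3. In pair 1, both labelled mesenteric lymph node, 9 of the 10 genes were lower in the Smc3/Bcl6 tumor, by -1.93 (log2) for Nkg7 and -2.75 for Ncr1. Prf1 was the exception at 0.52. In pair 2, 2 of the 10 were lower, Gzma at -0.63 and Ncr1 at -2.41, and in pair 3 Gzmb alone was lower, at -0.22. The direction thus differed between pairs for 9 of the 10 genes, and Prf1 was at 0.15 and 0.00 in pairs 2 and 3.

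The ratio to Cd8a did not separate the genotypes either, with 0 of 10 genes at an exact permutation p below 0.05, a level that 0.0427% of all genes reached. The difference of the mean log2 ratios (Smc3/Bcl6 minus Bcl6) was 0.65 for Prf1, the smallest p of the 10 genes (exact permutation p = 0.119). It was -0.26 for Gzmb (exact p = 0.524), -0.02 for Nkg7 (exact p = 0.929), -0.66 for Gzmk (exact p = 0.381), -0.66 for Ifng (exact p = 0.357) and 0.19 for Fasl (exact p = 0.571). For the genes whose ratios varied most it was 0.66 for Gzma (exact p = 0.5), 0.87 for Klrd1 (exact p = 0.429), 0.74 for Klrk1 (exact p = 0.595) and 0.81 for Ncr1 (exact p = 0.714). Without Smc3/Bcl6 tumor 2 it was 0.81 for Prf1 (exact p = 0.0714), 1.61 for Ncr1 (exact p = 0.393) and -0.92 for Gzmk (exact p = 0.214), and again 0 genes passed. The ratios of the genotypes overlapped for all 10 genes with 9 tumors, and 0.00711% of all genes did not overlap. With Cd3e in place of Cd8a, 0 of 10 passed as well, and 9 of the 10 genes followed Cd3e over the tumors, against 7.18% of all genes.

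Genes that work with the 10 were examined as lists, and in edgeR's test 0 genes of any list were called higher or lower. Of 7 other granzymes, Gzmd, Gzme, Gzmg and Gzmn were at 0 in all tumors and 2 could be tested. Gzmm, a granzyme of NK and T cells, was at 0.794, 9.07 and 22.9 CPM in the Bcl6 tumors and between 0.208 and 17.1 CPM in the Smc3/Bcl6 tumors (log2 fold change -1.32 ± 1.21). Among 9 genes of granule assembly and release the median change was -0.06. Serglycin (Srgn), the proteoglycan that holds granzymes in the granule, was at 780, 809 and 864 CPM in the Bcl6 tumors and between 510 and 3169 CPM in the Smc3/Bcl6 tumors. Ctsc, which activates granzymes, was at 867 to 2136 CPM and Lamp1, a lysosomal membrane protein, at 280 to 781 CPM over the 9 tumors, and neither gene was restricted to the Cd8a-rich tumors.

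The 17 NK receptors and signaling partners had a median log2 fold change of 0.07, which turned to -0.44 without Smc3/Bcl6 tumor 2 and to -0.52 under the replicate block. Hcst (DAP10), the adaptor of NKG2D, was at 17.3, 71.0 and 50.5 CPM in the Bcl6 tumors and between 4.93 and 167 CPM in the Smc3/Bcl6 tumors, and Tyrobp (DAP12), an adaptor also of myeloid cells, between 25.3 and 565 CPM over all tumors. Cd160 ranged from 1.6 to 79.6 CPM. Of 9 NKG2D ligands 5 were found and 2 tested. Ulbp1 stayed between 0.284 and 1.76 CPM and H60b between 0.106 and 5.92 CPM, the latter with its highest level in Smc3/Bcl6 tumor 4.

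Transcription factors of cytotoxic cells had a median log2 fold change of -0.45 over 8 genes tested, none of which passed the test. Tbx21 (T-bet) was at 138, 128 and 117 CPM in the Bcl6 tumors and between 17.5 and 184 CPM in the Smc3/Bcl6 tumors, Id2 at 37.8 to 541 CPM and Zeb2 at 35.8 to 246 CPM over the 9 tumors. Id2 followed Cd8a (r = 0.933), whereas r was 0.443 for Tbx21 and negative for Zeb2 (-0.357). The 7 cytokine receptors, none of which passed the test, had a median of -0.37, beside a median of -0.64 over the 7 T cell markers and -0.66 over Cd8a and Cd8b1, and their part in the values of these lists was not tested. Il2rb, the chain shared by the IL-2 and IL-15 receptors, ran from 38.7 to 540 CPM with an r of 0.955 to Cd8a. Il15ra ran from 15.9 to 80.2 CPM and Il21r from 221 to 509 CPM. The 5 tested cytokines that act on these cells had a median of 0.16, and Il12a, a subunit of IL-12, had its highest level, 64.4 CPM, in Smc3/Bcl6 tumor 4.

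Cytotoxic cell chemokines had a median log2 fold change of -0.21 over 4 genes, which was -1.20 without Smc3/Bcl6 tumor 2 and 0.34 under the replicate block. Ccl5 ran with the effector genes, at 65.0, 2202 and 1681 CPM in the Bcl6 tumors and between 37.8 and 3456 CPM in the Smc3/Bcl6 tumors (r with Cd8a 0.986). Ccl4 ran from 17.4 to 1319 CPM, and Ccl3, with 13.5 CPM, was like Ccl4 lowest in Smc3/Bcl6 tumor 4. Among interferon gamma target genes, Irf1 lay between 264 and 846 CPM (r with Cd8a 0.796), while Ciita, the activator of MHC class II genes, lay between 131 and 643 CPM (-0.766). In the same list r was 0.915 for Cxcl9, 0.908 for Cxcl10 and 0.782 for Gbp2, and Ciita alone had a negative r.

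In the Fas pathway and among granzyme inhibitors the median change was -0.09 over 8 genes, and Bid, a substrate of granzyme B, lay between 89.6 and 208 CPM. Serpinb9, the inhibitor of granzyme B, was at 518, 429 and 442 CPM in the Bcl6 tumors and between 28.6 (tumor 4) and 481 CPM (tumor 1) in the Smc3/Bcl6 tumors. Serpinb6b was at 274, 250 and 183 CPM and at 9.18 (tumor 4) to 460 CPM (tumor 5). Both inhibitors were lowest in the tumor with the highest Ncr1.

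When same-numbered tumors were blocked as pairs (replicates 1 to 3), a pairing that the labels do not state, 6 genes of these lists passed the thresholds of the study. Gzmm, Itga2, Eomes, Il18r1 and Il18rap were called lower, in a fit that called 1.9% of all genes lower, and Cxcl9 was called higher, against 0.337% of all genes. The median also turned in sign in this fit for the cytokines (-0.27), for the Fas pathway and granzyme inhibitors (0.14) and for granule assembly and release (0.01). In the same fit the markers called lower were Cd3e and Cd5 of T cells, Foxp3 of regulatory T cells, Csf1r, Emr1 and Mertk of macrophages and Cpa3 of mast cells, and their part in these calls was not tested. Without Smc3/Bcl6 tumor 2, Fas was called lower, against 1.39% of all genes.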

How the data were processed

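Reads of 9 tumor libraries were aligned by the authors to mm10 and Gencode transcripts with STAR, within nf-core's RNA-seq pipeline, and counted per gene with featureCounts, and the deposited values are these counts, not normalized. The strand setting is not given in the sources used here. The table held 0 columns without a sample. Groups and replicate numbers come from the labels. The labels do not say that tumors shared a litter or batch. Deviations of same-numbered tumors from their group means correlated at 0.443, 0.113 and 0.155. Tumors of different numbers were not compared in this way, so these values cannot show whether tumors were paired. Numbers 1 to 3 were treated as pairs as an alternative, in the blocked fit. Each library is a separate tumor, and p-values measure the spread between tumors.

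Genes were tested with edgeR 4.0.16 in R 4.3.3 (TMM factors, the filterByExpr rule per genotype, the quasi-likelihood test and p-values adjusted after Benjamini and Hochberg). Ratios and correlations used log2 values with a prior count of 2 and exact permutation tests in Python with scipy 1.17.1. The steps were tested on simulated data. Positions and exon lengths are from GENCODE M21 (GRCm38), which held 97.9% of the gene identifiers. The genes named are the 10 genes, Cd8a and other references, from each list those called or else the 3 with the highest mean CPM, and the 5 genes most correlated with Nkg7, Prf1 and Ncr1. Klrb1c, Klre1, Klra4, Klra8, Eomes and macrophage markers were also described as markers. List genes called only in an alternative, and Cxcl10 and Gbp2, were named after their values were seen. Some marker and list genes, and the summaries that hold them, are not reported here. The genes and lists were chosen with earlier results of these data known. Alternatives were DESeq2 1.42.0, limma 3.58.1 with quality weights, other normalizations, filters, covariates, reference genes and thresholds, an exon length offset, the replicate block and each tumor left out.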

Additional observations from a re-analysis of the deposited data

Results flagged for a closer look

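In the 6 Smc3/Bcl6 tumors, 50 genes were examined for 1 tumor far from the other 5, by the gap to the nearest tumor divided by the range on the log2 CPM scale (critical value 0.625), and 7 passed where chance gives 2.5. None of the 10 cytotoxic genes was among them. In Smc3/Bcl6 tumor 4, Serpinb9 (ratio 0.835) was at a log2 CPM of 4.84 against a median of 8.65 in the others, and Serpinb6b (0.749) at 3.22 against 8.28. Tumor 2 stood apart for Smc3 (0.847), for Srgn (0.680), at 11.63 against 9.53, and for Ciita (0.646), at 7.03 against 8.93. In this tumor short genes lay high and long genes low, as described above, and Smc3 has 5541 exon bases. The part of gene length in these values was not tested. In tumor 1, Il18 (0.664) was at 1.71 against 4.81 and Il15 (0.674) at 1.82 against 3.01.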

How the results depend on the processing

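No gene of the 10 was called between genotypes under any alternative of edgeR or DESeq2 or with any tumor left out, and 7 were called with limma quality weights. Their median log2 fold change lay between -1.03 and 0.02 with 1 tumor left out (-1.03 without Smc3/Bcl6 tumor 2, 0.02 without Bcl6 tumor 3) and was -0.37 with DESeq2, -0.37 with its size factors, -0.39 with no filter, -0.93 with the tissue label as a covariate, -0.73 with the length offset and -2.36 with quality weights. Under the replicate block over replicates 1 to 3 the median was -0.31, no call of the 10 genes changed, and the sign turned for Gzma (-0.50), Prf1 (0.19), Klrd1 (-0.24) and Ncr1 (-1.40). With quality weights it turned for Gzma (-1.95), Klrd1 (-1.68) and Ncr1 (-0.78), with the tissue covariate for Gzma (-0.83), Klrd1 (-0.71) and Ncr1 (-0.14), and with the length offset for Gzma (-0.04) and Klrd1 (-0.13). With 1 tumor left out, the log2 fold change ranged from -0.74 to 0.95 for Gzma, -1.30 to 0.53 for Gzmb, -1.76 to 0.02 for Gzmk, -1.37 to 0.01 for Nkg7, -0.43 to 0.50 for Klrd1, -0.90 to 0.16 for Klrk1, -0.50 to 1.00 for Ncr1 and -1.05 to 0.04 for Fasl. The causes were not tested.

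All genes called higher and lower numbered 180 and 122 in the main test, 342 and 101 with DESeq2, 576 and 812 with no filter, 642 and 1002 with quality weights, 130 and 192 with the tissue covariate, 45 and 254 with the replicate block, and 84 (without Bcl6 tumor 2) to 339 (without Smc3/Bcl6 tumor 2) and 61 (without Smc3/Bcl6 tumor 6) to 321 (without Smc3/Bcl6 tumor 3) with 1 tumor left out.

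The log2 difference of the ratio to Cd8a kept 0 genes called under each alternative. With Cd3e as the reference Nkg7 turned to 0.14, and in the replicate block of 3 pairs, whose smallest p is 0.25, Gzma (-0.25), Klrd1 (-0.14), Klrk1 (-0.37), Ncr1 (-0.88) and Fasl (-0.02) turned. With 1 tumor left out it ranged from -0.20 to 0.21 for Nkg7, -0.21 to 1.39 for Gzma and -0.36 to 2.17 for Ncr1, with a smallest p of 0.0714 (Bcl6 tumor out) or 0.0357. The number of genes that followed Cd8a was 9, 4 without the 2 tumors farthest from its median and 7 to 9 with 1 tumor left out, where Gzma was lost in 5 of 9 cases and Gzmk without Smc3/Bcl6 tumor 5. The Spearman coefficient of Ncr1 with Cd8a was -0.286 without the 2 tumors and ranged from -0.238 to 0.310 with 1 left out.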
